A study of Mus musculus with 6 samples.

Results

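Cochlin, encoded by Coch, and its structural relatives are secreted matrix proteins built around the von Willebrand factor A (VWA) domain, a fold that binds collagens and other matrix partners. The set comprised 7 genes chosen by symbol, namely Coch, Vit, Matn1, Matn2, Matn3, Matn4 and Vwa1, and 6 of them were among the 24348 genes of the count table. Matn1 was absent from the table and was not analyzed here. Coch was singled out because earlier results of these data placed it among the called genes with the highest fold change after immune complexes (ICs), so its difference between groups is described without a test. The other members were listed as its relatives.

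Libraries came from fibroblasts sorted from the synovium, the soft lining of the joint, of adult wild-type C57BL/6 mice. There were 3 libraries from mice injected intravenously with ICs, antibody bound to its antigen (in this study ovalbumin with rabbit antibody against it), and 3 from control mice given vehicle. No transgene or deletion was present in either group. The time between injection and dissection, the sort markers and whether each library came from 1 mouse are not given in the sources used here, so p-values measure only the spread between these libraries. Total counts ran from 40114331 to 56714304 per library.

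Cochlin and vitrin, the product of Vit, join a short LCCL module (named after Limulus factor C, cochlin and Lgl1) to VWA domains. Cochlin is abundant in the inner ear, where aggrecanases can release its LCCL part as a secreted immune signal. Matrilins link collagen fibrils, proteoglycans and cartilage oligomeric matrix protein into networks. Matrilin-1 and matrilin-3 are known from cartilage, whereas matrilin-2 and matrilin-4 are found in many connective tissues. Vwa1 encodes WARP, a matrix protein of cartilage, nerve and vessel surroundings that binds perlecan and collagen VI.

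The genes lie apart in the genome, by GENCODE M21 on GRCm38, the assembly that mm10 names. Coch spans chromosome 12 from 51593341 to 51605771 and Matn3 lies on the same chromosome from 8947929 to 8972028. Vit spans chromosome 17 from 78508064 to 78627408, Matn2 chromosome 15 from 34306677 to 34436273, Matn4 chromosome 2 from 164389393 to 164405160 and Vwa1 chromosome 4 from 155768149 to 155774698. Exons of Matn2, Matn4 and Vwa1 share 70, 149 and up to 760 bases, respectively, with exons of genes on the opposite strand, so reads there are uncertain where counting ignored strand. Of these neighbors Rbpjl, beside Matn4, had at most 7.71 normalized counts in any library, and Atad3aos, beside Vwa1, had at most 32.0. No level was read for 9430069I07Rik, beside Matn2, or for Gm26840, which has the 760-base overlap with Vwa1, because neither symbol is among the genes of the table.

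The upstream sequence of Coch is shown because Coch was the member with more counts after IC, and that of Matn3, on the same chromosome, is shown for contrast as the member with the fewest counts. Both windows hold the 250 bases before the RefSeq transcription start on GRCm38.p6, plus strand, at chr12:51593091-51593340 for Coch and chr12:8947679-8947928 for Matn3. Capitals mark GC boxes (GGGCGG on either strand), the letters bound by Sp1-type factors.
Coch: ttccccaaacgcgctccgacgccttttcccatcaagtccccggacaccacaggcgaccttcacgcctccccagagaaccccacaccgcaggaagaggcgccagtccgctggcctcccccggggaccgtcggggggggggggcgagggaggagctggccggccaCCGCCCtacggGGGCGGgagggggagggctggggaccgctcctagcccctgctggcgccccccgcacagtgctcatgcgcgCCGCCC
Matn3: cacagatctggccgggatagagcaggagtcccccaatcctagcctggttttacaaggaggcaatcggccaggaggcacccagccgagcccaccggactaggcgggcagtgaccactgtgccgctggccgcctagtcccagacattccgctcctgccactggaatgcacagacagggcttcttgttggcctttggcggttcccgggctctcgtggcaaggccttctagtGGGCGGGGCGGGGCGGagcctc

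The Coch window was 74.8% G or C, above 95.8% of 32851 such windows, and held 24 CpG pairs. Its 3 GC boxes began 87, 76 and 6 bases before the start. The Matn3 window was 65.2% G or C with 14 CpG pairs, and its 3 GC boxes, which overlap one another, began 22, 17 and 12 bases before the start. A GC box is common, since 32.7% of all windows held one. Neither window held TATAAA (12.4% of all windows), TTCNNNGAA for STAT factors (7.02%), TGANTCA for AP-1 (6.75%), the interferon-stimulated response element (2.98%), ACAATGG for SOX9 (3.02%) or CACGTG, the E-box (6.02%), searched on both strands. Promoter windows were also listed for Matn1 and Matn4, and no window was used for Vit, Matn2 or Vwa1.

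The first comparison set the level of each member beside the others, in RPKM, counts scaled by exon length and by the total of the library. In vehicle libraries Vit was the highest member at 46.9 ± 2.66 RPKM (SD, n = 3), above 96.6% of tested genes. Matn2 followed at 21.1 ± 2.72 and Vwa1 at 15.4 ± 0.913. Their vehicle ranges, 18.0 to 23.1 RPKM for Matn2 and 14.6 to 16.4 for Vwa1, did not overlap. Matn4 had 2.65 ± 0.0546 RPKM and Coch 1.64 ± 0.380, and Coch stood above 39.1% of tested genes. Matn3 was near the floor at 0.113 ± 0.106 RPKM. Vehicle fibroblasts thus carried Vit, Matn2 and Vwa1 as the abundant members, with the order Vit, Matn2, Vwa1, Matn4, Coch and Matn3, and no pair of neighbors in that order overlapped between libraries.

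After IC the order differed at 1 place. Coch stood above Matn4 in mean level, with 4.41 ± 1.97 RPKM against 2.30 ± 0.371 (SD, n = 3). Coch exceeded Matn4 within every IC library, at 6.54 against 2.67, 4.04 against 2.32 and 2.66 against 1.92 RPKM in replicates 1, 2 and 3. In the vehicle libraries Coch was below Matn4 each time, at 1.59 against 2.72, 1.29 against 2.61 and 2.05 against 2.64 RPKM. This exchange uses the difference for which Coch was chosen and is a description. Matn2, at 14.3 to 15.9 RPKM, and Vwa1, at 10.8 to 15.7, overlapped after IC.

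**Figure D1:**
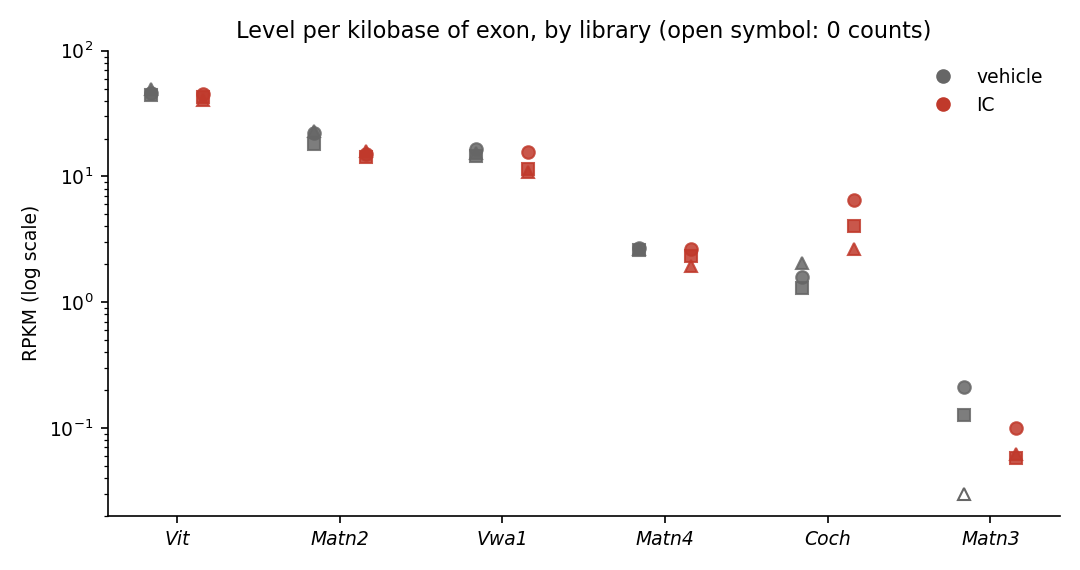
RPKM on a log axis for each member in each of 3 vehicle (gray) and 3 IC (red) libraries, with symbols for replicate 1 (circle), 2 (square) and 3 (triangle). Vit is the highest member in every library, Coch lies above Matn4 in the IC libraries only, and the open triangle marks vehicle replicate 3, with 0 counts of Matn3, at an arbitrary height.

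The second question was how each member differed between IC and vehicle. Coch had 942, 575 and 386 normalized counts in IC replicates 1, 2 and 3, and 221, 191 and 299 in vehicle replicates 1, 2 and 3. Every IC library was above every vehicle library, and IC replicate 1 was far above the others. Mean ± SD of the 3 libraries was 634 ± 283 in the IC group and 237 ± 55.8 in the vehicle group, which differ 2.68-fold. On the log2 scale the DESeq2 estimate was 1.42 ± 0.283 (SE). The value was 1.02 without IC replicate 1 and 1.68 without IC replicate 3, the lowest and highest when each of the 6 libraries was dropped in turn. Within groups Coch varied with an SD of 0.51 on the log2 scale, more than 96.6% of 4046 genes of like abundance. No p is given for Coch, and its call by DESeq2, which was part of how it was chosen, was not made by edgeR or limma-voom.

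Vit, the member closest to Coch in domain composition, did not share its difference. It had 7029, 6616 and 6326 normalized counts after IC and 6888, 7128 and 7851 after vehicle, and the groups overlapped. The log2 fold change was −0.13 ± 0.0856 (SE), DESeq2 adjusted p 0.646, and its 95% interval ran from 0.813-fold to 1.03-fold. Coch made up 6.11 to 13.4 counts for every 100 counts of Vit in IC libraries and 2.68 to 3.81 in vehicle libraries, without correction for length.

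Matn2, the most abundant matrilin, was lower after IC. It had 4539, 4239 and 4834 normalized counts after IC and 6458, 5548 and 7044 after vehicle. All 3 IC libraries lay below all 3 vehicle libraries. The log2 fold change was −0.48 ± 0.102 (SE), or 0.715-fold, and DESeq2 gave it an adjusted p of 0.000361. Dropping any 1 of the 6 libraries kept the call, with adjusted p from 3.69e-06 to 0.0251, but it was lost with edgeR (0.0836) and limma-voom (0.0619). Matn2 was the only 1 of the 5 relatives called by DESeq2, against 2.1% of all 19925 tested genes called in either direction and 1.07% called lower. Among genes with a mean of at least 1000 normalized counts, as Matn2 has, 4.03% were called in either direction. Matn2 was also the only 1 of the 5 whose groups did not overlap. That held for 15.8% of tested genes in either direction and 7.67% with IC below, while 8.09% had IC above as Coch did.

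Matn4 had 662, 571 and 482 normalized counts after IC and 653, 666 and 665 after vehicle. The vehicle libraries were nearly identical and IC replicate 1 lay within their range. The log2 fold change was −0.21 ± 0.166 (SE), DESeq2 adjusted p 0.742, and a 95% interval from 0.689-fold to 1.08-fold.

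Vwa1 had 2726, 1973 and 1886 normalized counts after IC and 2762, 2603 and 2707 after vehicle. IC replicate 1 was at the vehicle level and the other IC libraries were below it. The log2 fold change was −0.29 ± 0.133 (SE), DESeq2 adjusted p 0.328. Without IC replicate 1 it was −0.48 with an adjusted p of 0.000901, so this library decided whether Vwa1 was called. IC replicate 1 held the highest IC value of 5 of the 6 members, Matn2 being the exception.

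Matn3, a cartilage matrilin, had 13, 8 and 10 raw counts after IC and 36, 20 and 0 after vehicle. The 0 in vehicle replicate 3 allows up to 3 counts, or 0.0748 CPM, by counting error alone. DESeq2 gave no adjusted p at this abundance, and the 95% interval of the log2 fold change ran from −2.93 to 1.66. A difference in Matn3 was not detectable at this depth.

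**Figure D2:**
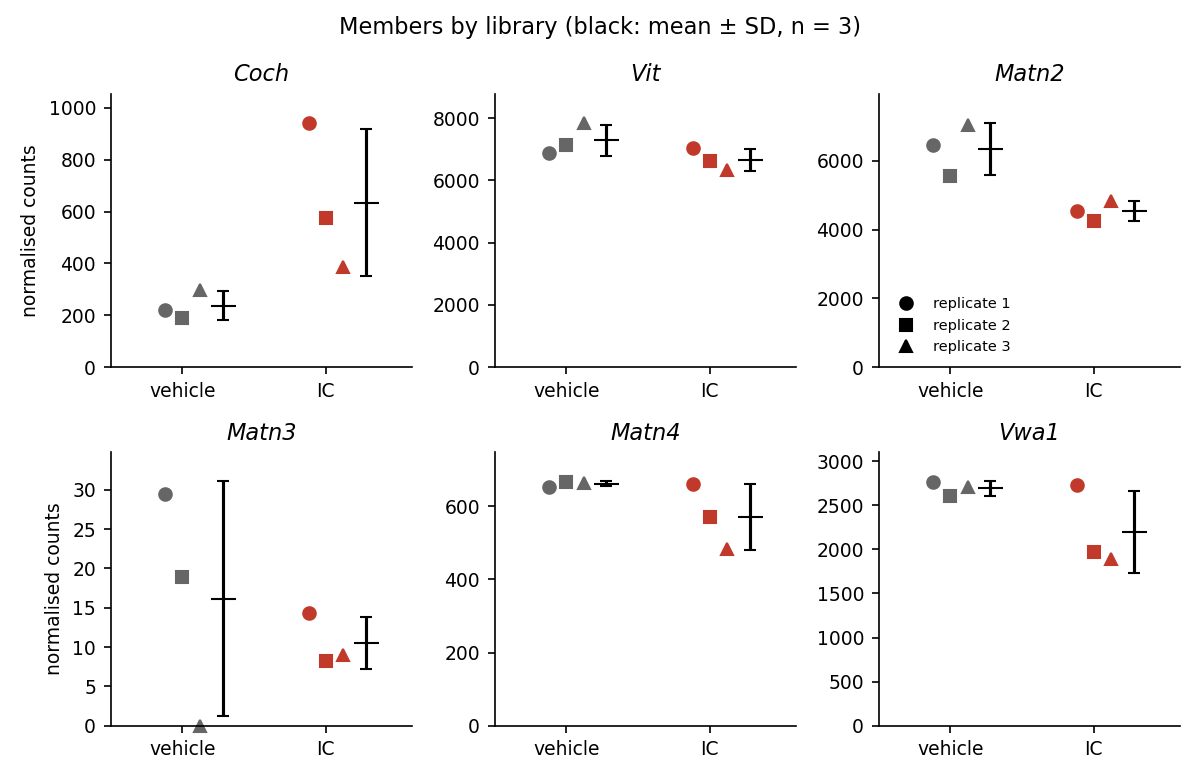
Normalized counts of the 6 measured members on axes that start at 0, with 1 symbol per library and the mean ± SD of 3 libraries in black. IC values of Coch lie above and those of Matn2 below all vehicle values, and the other 4 members overlap between groups.

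Apart from Coch, all 5 relatives had a log2 fold change below 0, with a median of −0.29 against −0.0019 over all tested genes, and 4 of these 5 did not pass the test. The summed level of the 6 members was 288 to 331 CPM, counts scaled by the total of the library alone, after IC and 328 to 381 after vehicle, so the ranges met only at their edges, and Coch made up 2.77% to 5.92% of that sum after IC and 1.18% to 1.61% after vehicle.

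**Figure D3:**
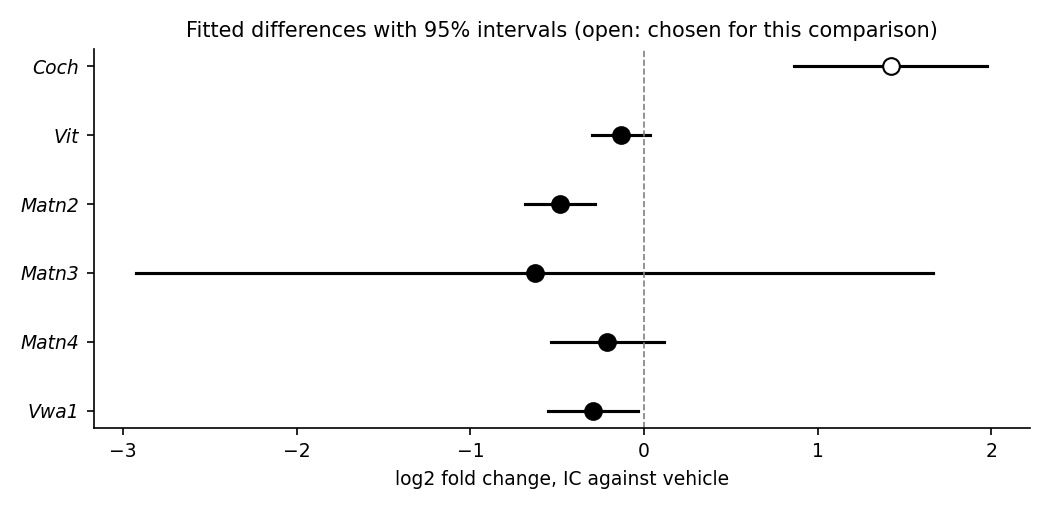
Log2 fold change of IC against vehicle from DESeq2 for each member, with its 95% interval as a line. Coch (open, chosen for this comparison) lies at 1.42, Matn2 at −0.48, and the wide line of Matn3 runs from −2.93 to 1.66. Because Coch was chosen for this difference, its line is a description and cannot be read as a test against 0.

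Markers of other cell types were read in the same libraries, where fewer cells of a type cannot be told apart from less RNA per cell. Fibroblast markers summed to 44996 to 46756 CPM after IC and 45816 to 55778 after vehicle, with Pdgfra and Col1a1 detected in every library. Collagens carry most of that sum, and of the 12 markers DESeq2 called 1 higher, Prg4, and 3 lower, Col3a1, Lum and Clic5. Prg4 had 361 to 473 CPM after IC and 178 to 281 after vehicle. Clic5 went the other way, at 21.99 to 25.79 CPM after IC and 30.86 to 46.03 after vehicle. Htra4 overlapped, at 20.53 to 22.65 CPM after IC and 15.41 to 32.59 after vehicle. Genes named from the marker lists were chosen after their values were seen. Skeletal muscle markers summed to 23.7 to 64.7 CPM after IC and 70.2 to 146 after vehicle (14 of 14 in the table). Endothelial markers summed to 215 to 300 and 310 to 360 (10 of 10), and mural markers to 501 to 617 and 620 to 668 (9 of 9). Each sum was lower in every IC library. DESeq2 called 3, 3 and 1 genes of these lists lower, respectively, and 0 higher. The mural sums nearly met and include Des (5.70 to 18.3 and 24.2 to 40.3 CPM), which is also in the muscle list. With Des taken out, the mural sums overlapped between groups. Cspg4, another mural marker, overlapped at 164 to 193 and 165 to 170 CPM. The sum of tendon markers, in contrast, was higher after IC, at 3040 to 3655 CPM against 1742 to 2659 after vehicle (9 of 9). Thbs4, Fmod, Comp and Cilp carried most of it. DESeq2 called 3 of the 9 higher, Thbs4, Cilp and Mkx, and 0 lower. Tnmd overlapped at 29.65 to 35.64 and 28.28 to 40.37 CPM, as did Scx at 8.05 to 8.81 and 5.51 to 8.32. Chondrocyte and bone markers overlapped, at 198 to 246 and 199 to 248 CPM (14 of 18 in the table). Chad, Col11a1, Col11a2 and Phex carried most of that sum, and the median log2 fold change of the list was −0.42. None of these chondrocyte and bone markers was called (0 of 12 tested), with Col2a1 at 3.65 to 4.96 CPM after IC and 4.98 to 8.99 after vehicle, and Col9a3 at 10.6 to 12.7 and 8.94 to 9.20. Macrophage markers (32.4 to 51.0 CPM over both groups, 8 of 12, with Adgre1, C1qa, Ptprc and Tyrobp absent from the table) overlapped too. Schwann and perineurial markers overlapped as a sum (159 to 239 CPM after IC and 221 to 270 after vehicle, 10 of 10), but DESeq2 called 3 of the 10 lower and 0 higher, namely Ngfr, Ptprz1 and Cldn1. Ngfr had 15.8 to 28.4 CPM after IC and 54.0 to 117 after vehicle. The part of these other cells in the values of Coch, Matn2 and Vwa1 was not tested.

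The genes around the members were described by 6 lists of other VWA genes, other LCCL genes, matrix partners, basement membrane partners, proteinases with their inhibitors, and cartilage regulators. DESeq2 called 19 of 108 tested list genes (17.6%), 10 higher and 9 lower after IC. The share called was 4.03% among all genes with a mean of at least 1000 normalized counts, a level that 72 of the 108 reached. edgeR called 1 of the 108, Itih5, and limma-voom called 2. The lists were chosen with earlier results of these data known, so the difference between these shares is a description and not an enrichment. No set test was made.

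Among other VWA genes, 4 of 34 tested were called, 2 in each direction, with a median log2 fold change of −0.05. Itih5, whose product binds hyaluronan through covalent linkage, fell from 26982 ± 3021 to 17952 ± 1110 normalized counts (SD, n = 3 each), or −0.59 on the log2 scale. Its adjusted p was 1.02e-07 with DESeq2 and 0.0338 with edgeR. Col6a6, a collagen VI chain, fell with −0.45 (adjusted p 6.85e-05). Col12a1, a fibril-associated collagen of tendon and ligament, rose with 0.46 (0.000232). These 3 calls held whichever library was left out. Itga10, a collagen-binding integrin chain of chondrocytes, rose with 0.67 (0.0208), but its adjusted p was 0.197 without IC replicate 2, 0.158 without IC replicate 3, 0.0698 without vehicle replicate 1 and 0.0839 without vehicle replicate 2.

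Among the other LCCL genes, Crispld1, Crispld2, Dcbld1 and Dcbld2, DESeq2 called 0 of 4, and 2 had an unadjusted p under 0.05 with DESeq2, edgeR and limma-voom alike. Without IC replicate 1 or vehicle replicate 1 the count was 1. Crispld2, a secreted LCCL protein, averaged 10609 ± 751 normalized counts (SD, n = 3) in the IC group against 12498 ± 322 in the vehicle group. It had −0.24 on the log2 scale with a DESeq2 adjusted p of 0.0838, and is named after its value was seen. A difference in the direction of Coch was therefore not called in any other tested gene with this module.

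Among cartilage and tendon matrix partners of the matrilins, 5 of 22 tested were called, 4 higher and 1 lower, with a median log2 fold change of 0.12. Acan, which encodes aggrecan, the main cartilage proteoglycan, had 228, 398 and 229 normalized counts after IC and 78.7, 123 and 137 after vehicle. Every IC library was above every vehicle library, and the log2 fold change was 1.34 ± 0.321 (SE), DESeq2 adjusted p 0.00290, or 0.147 without IC replicate 2. Thbs4, a tendon thrombospondin, rose with 0.66 (2.16e-05), and Cilp, a cartilage intermediate layer protein, with 0.54 (0.000612), both whichever library was left out. Thbs4 and Cilp are also tendon markers, whose sum was higher in every IC library, as given above. Prelp, a leucine-rich repeat proteoglycan, rose with 0.49 (0.00390), but missed the threshold without IC replicate 1 (0.0522), 2 (0.0580) or 3 (0.0517). Fn1, which encodes fibronectin and is named after its value was seen, fell with −0.34 (0.0494) and stayed called in 1 of the 6 fits without 1 library, that without vehicle replicate 1. The count for this list was 3, 2 and 3 without IC replicate 1, 2 or 3.

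Among basement membrane partners of Vwa1, 4 of 18 tested were called and all 4 were lower, with a median log2 fold change of −0.12. Col4a5, a collagen IV chain, fell with −0.65 (adjusted p 6.67e-05 by DESeq2) and was called whichever library was left out. Smoc2, a calcium-binding matrix protein, fell with −0.40 (0.0136), Nid1, the linker nidogen-1, with −0.33 (0.0206), and Col15a1 with −0.31 (0.0283). Each of these 3 kept the call after 2 of the 6 omissions of a library. Hspg2, which encodes perlecan, the known ligand of WARP, overlapped between groups at 129240 to 153010 and 135470 to 174780 normalized counts, and is named after its value was seen. The count for this list was 1 without IC replicate 2 or 3 or without vehicle replicate 3, 2 without vehicle replicate 2 and 7 without vehicle replicate 1. The sum of endothelial markers was lower in the same libraries, as given above. That of mural markers was narrowly lower and overlapped between groups without Des.

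Among proteinases and inhibitors, 3 of 14 tested were called, 2 higher and 1 lower, with a median log2 fold change of −0.03. Timp1, an inhibitor of metalloproteinases, rose with 0.89 (adjusted p 0.000272 by DESeq2), and Adamts15, an aggrecanase, fell with −0.61 (7.48e-05), both whichever library was left out. Adamts4, an aggrecanase known to release the LCCL part of cochlin, had 4238, 4124 and 4177 normalized counts after IC and 3305, 3634 and 3266 after vehicle, with all IC libraries higher. Its log2 fold change of 0.30 had an adjusted p of 0.0313, and from 0.0822 to 0.150 without any 1 IC library or without vehicle replicate 3. The count for this list was 5 without vehicle replicate 1.

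Among cartilage lineage regulators, 3 of 16 tested were called, 2 higher and 1 lower, with a median log2 fold change of −0.01. Sox5, a partner of SOX9 in cartilage gene control, fell with −0.42 (adjusted p 0.00301 by DESeq2), also without any 1 library. Nfatc1, a factor of joint progenitor cells, rose with 0.39 (0.00402) and kept the call after 2 of the 6 omissions. Mkx, a tendon factor that is also in the list of tendon markers, rose with 0.73 (0.0292) and kept the call after 1 of them. The count was 1 without IC replicate 1 or 2 or without vehicle replicate 3. Sox9 itself, named after its value was seen, overlapped between groups, at 1873 to 2227 and 1828 to 2342 normalized counts.

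**Figure D4:**
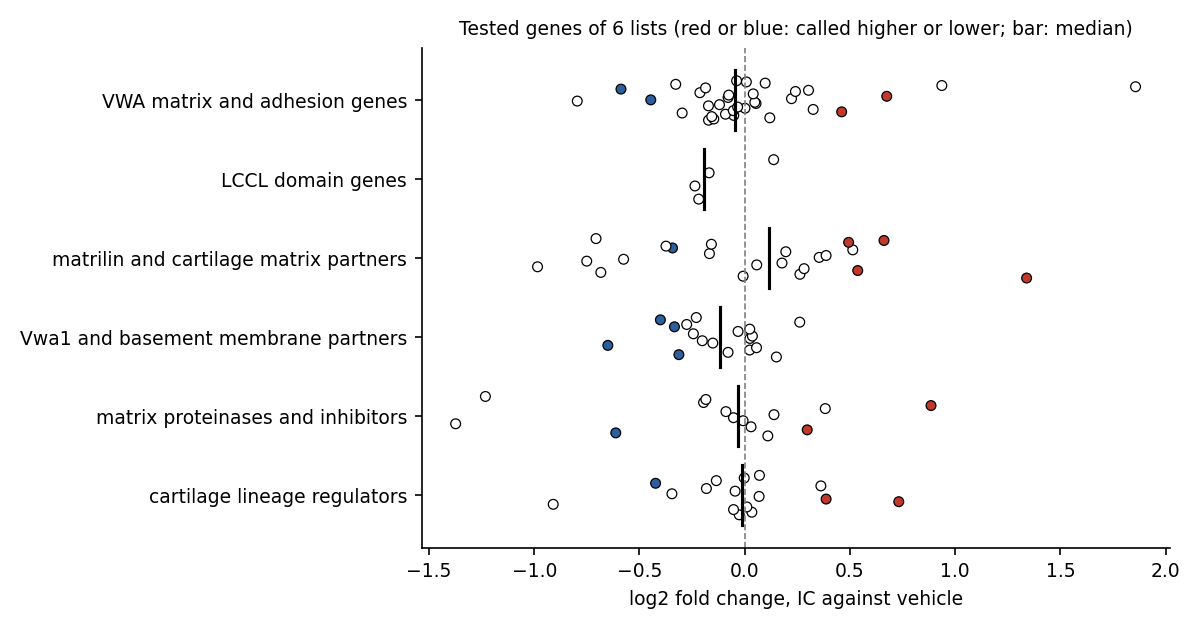
Log2 fold change of IC against vehicle for the 108 tested genes of the 6 lists, 1 point per gene, with the list median as a bar and genes called by DESeq2 in red (10 higher) or blue (9 lower). All called basement membrane partners lie below 0, and Acan at 1.34 is the highest called gene.

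The third question was which genes followed Coch most closely from library to library. Likeness was measured as the root-mean-square difference between log2 profiles over the 6 libraries, each centered on its own mean, among 13434 genes with a mean of at least 100 normalized counts. Because Coch was chosen for its difference between groups, genes near it share that difference by construction, and no test was made. The median distance of all genes from Coch was 0.81, and the 8 nearest genes lay at 0.37 to 0.44. In order they were Ccl9, Gm21887, Gm47283, Angptl7, Hist2h2be, Dynlt1c, Gpt and Spp1. Ccl9, a chemokine gene, had 227, 176 and 105 normalized counts in IC replicates 1, 2 and 3 and 111, 59.5 and 66.9 in vehicle. It shared the high value of IC replicate 1 with Coch, and its groups overlapped. Angptl7, which encodes a secreted angiopoietin-like protein, had 11203, 9816 and 8914 after IC and 4995, 5671 and 5823 after vehicle. Spp1, which encodes the matrix protein osteopontin, had 1189, 1409 and 1039 after IC and 717, 527 and 846 after vehicle. Both had all IC libraries above all vehicle libraries. Gm21887, Hist2h2be and Dynlt1c have close relatives in the genome, and their counts are uncertain.

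None of the 4 relatives ranked was among the genes nearest to Coch. Vit lay at 0.82, Matn4 at 0.84, Vwa1 at 0.88 and Matn2 at 1.001. Of 13434 genes Vit ranked 7632, Matn4 8943, Vwa1 10630 and Matn2 12718 in nearness, so Vit was close to the median distance. A gene that does not differ between groups lies away from Coch by construction. Matn3 was below the minimum mean and was not ranked.

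**Figure D5:**
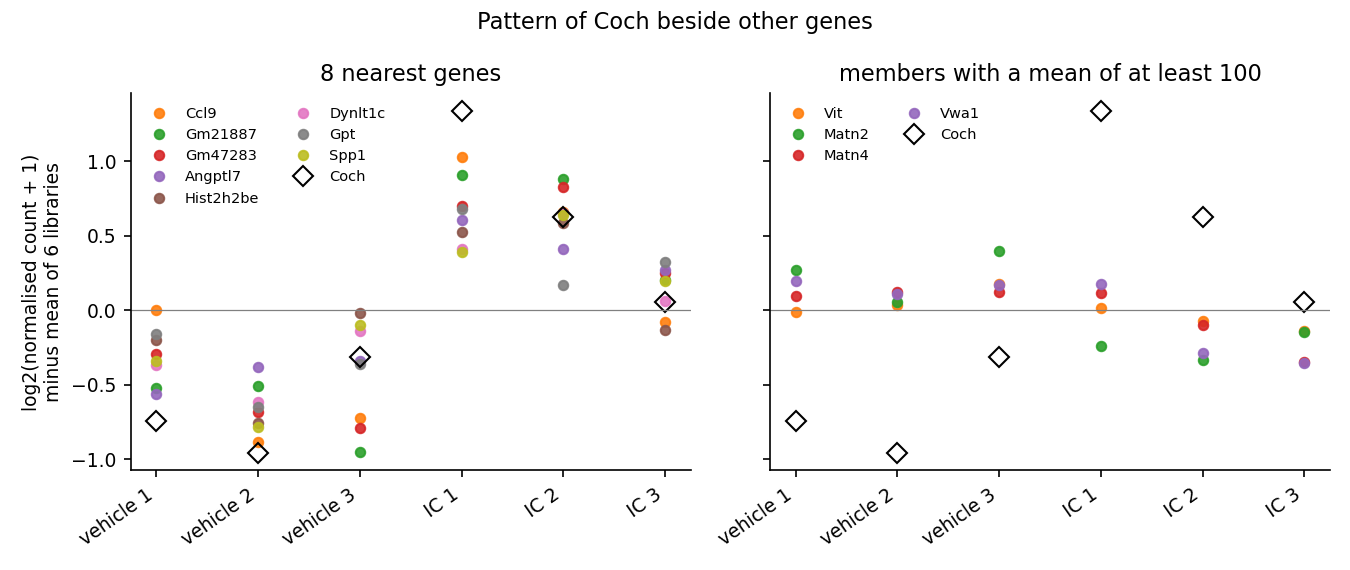
Log2(normalized count + 1) minus the gene's mean over 6 libraries, for Coch (open diamonds) beside its 8 nearest genes on the left and 4 other members on the right. Coch runs from −0.96 in vehicle replicate 2 to 1.34 in IC replicate 1, while the other members stay between −0.36 and 0.40.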

How the data were processed

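The authors deposited raw read counts by gene, obtained with Trim Galore, HISAT2 (mm10) and featureCounts. Their versions, annotation and strand setting are not given in the sources used here, and the library kit in the labels is not that in the methods. The methods name sva for removing batch effects, and the labels give no batch. Each of the 6 single-sample files held the same values as the table.

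A minimum of 10 counts in 3 or more libraries left 19925 genes. They were tested with the Wald test of DESeq2 (version 1.42.0), as in the study's methods, with treatment as the only term. Benjamini-Hochberg adjustment covered the tested genes that passed DESeq2's independent filtering on mean count. Normalized counts are counts divided by the DESeq2 size factor, fold changes are unshrunken and 95% intervals are 1 gene at a time. A gene was called at an adjusted p under 0.05, and 3870 genes received none. RPKM used total counts and the union of GENCODE M21 exons, which may differ from the annotation used for counting.

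Alternatives were edgeR's quasi-likelihood test (version 4.0.16), limma-voom (version 3.58.1), scaling by TMM or by total counts, all genes without the count minimum, no independent filtering, a replicate block, sva (version 3.50.0) with 1 surrogate variable, and each library left out. DESeq2 and edgeR were also run on simulated counts with known changes. The members and lists were chosen with earlier results of these data known. Named genes were the members, at most 4 called genes per list with the smallest adjusted p, and the 8 genes nearest to Coch. Fn1, Crispld2, Hspg2, Sox9 and genes of the marker lists were named outside this rule, after their values were seen.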

Additional observations from a re-analysis of the deposited data

How the results depend on the processing

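The direction of Coch, Vit, Matn2, Matn4 and Vwa1 was the same under all 14 alternatives. Matn3 changed sign with limma-voom (0.26), with the replicate block (0.17) and without vehicle replicate 1 (0.14), and had no call to lose. Matn2 lost its call with edgeR (log2 fold change −0.49) and limma-voom (−0.48), and no other alternative ended it. Across the 6 fits that each left out 1 library the log2 fold change of Coch ran from 1.02 to 1.68, that of Vit from −0.17 to −0.07, that of Matn2 from −0.57 to −0.40, that of Matn4 from −0.33 to −0.10 and that of Vwa1 from −0.48 to −0.20.

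The number of genes called over the whole table was 419 with DESeq2, 37 with edgeR, of which 37 were among the 419, 62 with limma-voom and 281 to 677 without 1 library. List counts were 1 with edgeR and 2 with limma-voom for other VWA genes, and 0 with both for matrix partners, basement membrane partners, proteinases and regulators. At an unadjusted p under 0.05 edgeR gave 10, 7, 5 and 3 genes in those 4 lists, limma-voom 10, 7, 6 and 3, and DESeq2 8, 8, 5 and 3. Without 1 library the counts ran from 3 to 5 for other VWA genes, 0 to 1 for LCCL genes, 2 to 7 for matrix partners, 1 to 7 for basement membrane partners, 2 to 5 for proteinases and 1 to 2 for regulators.

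Libraries that share a replicate number were not taken as pairs: over 13435 genes, their departures from the group means had correlations of −0.0918, −0.164 and 0.025. Under the replicate block the whole-table count was 320 and the count for basement membrane partners was 2, as it was with 1 surrogate variable. The block gave log2 fold changes of 1.36 for Coch and −0.48 for Matn2.

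With the length of the longest transcript in place of all exons, vehicle levels were 55.9 RPKM for Vit, 36.9 for Matn2 and 3.34 for Matn4. The cause of each change was not tested, except that this last one follows from the shorter length.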
